A study of Mus musculus with 10 samples.

Results

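The MHC class I presentation machinery was followed here as 10 genes, taken by name from the 24538 genes of the count files. H2-K1 and H2-D1 encode the classical heavy chains and B2m encodes the light chain, beta-2 microglobulin. Tap1, Tap2 and Tapbp encode the peptide transporter and tapasin, Psmb8, Psmb9 and Psmb10 encode the catalytic subunits of the immunoproteasome, and Nlrc5 encodes the transactivator of class I genes. All 10 passed the filter on low values (1 FPKM or more on average in either group), as did 11571 genes in all. FPKM is the number of sequenced fragments on a gene, scaled by the length of its transcript and by the fragments mapped in its library.

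The libraries came from lung macrophages of wild type C57BL6/J female mice aged 8-10 weeks, sorted by flow cytometry. Metastasis-associated macrophages (MAMs, 5 libraries) were large (FSC hi) LY6C- cells positive for CD45, F4/80 and MRC1 that were CD11B+ and CD11C-. Their source was small lung metastases of E0771-LG, a mouse mammary tumor line, injected into the tail vein at 6-8 weeks of age, and metastases of 2-4 mice were pooled. Resident alveolar macrophages (RAMs, 5 libraries) passed the same gate except that they were CD11C+ and CD11B-, and came from normal lungs. Alpha-amanitin and actinomycin D, which block transcription, were in the digestion buffer according to the sample records. The groups differ in the type of macrophage and in the state of the lung, and the parts of these in any difference cannot be told apart. No library of CD11C+ macrophages from lungs with metastases was analysed here.

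Class I molecules show peptides from inside the cell to CD8 T cells and to natural killer cells. The proteasome cuts cytosolic proteins, TAP carries the peptides into the endoplasmic reticulum, and tapasin holds TAP beside a heavy chain paired with beta-2 microglobulin until a peptide is bound. In cells exposed to interferon, Psmb8, Psmb9 and Psmb10 take the places of Psmb5, Psmb6 and Psmb7 in newly built proteasomes, and NLRC5 acts at the class I promoters through factors of the RFX, CREB/ATF and NF-Y families. Macrophages are known to carry class I on the surface at rest and to raise it under interferon.

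All 10 genes were differentially expressed and higher in MAMs. Each had more than a 2-fold difference and passed edgeR's quasi-likelihood test at an adjusted p of 0.05. Of all genes tested, 15.3% passed in this direction. The log2 fold changes ran from 1.14 for Tap2 to 4.01 for Nlrc5, with a median of 1.84 beside -0.02 over all genes tested. For 9 of the 10, every MAM library lay above every RAM library, which held for 23.7% of all genes tested. Tap2 was the exception. In bulk samples more class I transcript per cell and a larger share of cells that carry it cannot be told apart. Every member had an adjusted p under 0.05 in this direction under each of the 19 alternative settings, but Tap2 had a fold change under 2 in 3 of them.

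The promoters of the genes with the highest levels and of Tap1 are shown. Class I genes are known to be read through short letter runs, of which each window carries some. The windows are 250 bases upstream of the transcription start, on the strand of the gene, from RefSeq on GRCm38.p6. RefSeq gives 2 starts for H2-K1, of which the one at 34000333 was used. The GENCODE model of H2-K1 begins at the other, 34000347. The GENCODE model of H2-D1 begins at 35262730, so that the printed stretch of H2-D1 lies within it. Capitals mark matches to the runs that are spelled out after the sequences, except the GC box, which is left in lower case.
H2-K1 (chr17:34000334-34000583, minus strand): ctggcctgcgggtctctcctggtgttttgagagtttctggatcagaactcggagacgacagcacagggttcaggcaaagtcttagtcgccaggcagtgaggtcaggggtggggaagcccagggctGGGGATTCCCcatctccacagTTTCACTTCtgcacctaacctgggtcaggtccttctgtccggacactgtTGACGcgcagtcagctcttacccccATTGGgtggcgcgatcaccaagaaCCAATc
H2-D1 (chr17:35262844-35263093, plus strand): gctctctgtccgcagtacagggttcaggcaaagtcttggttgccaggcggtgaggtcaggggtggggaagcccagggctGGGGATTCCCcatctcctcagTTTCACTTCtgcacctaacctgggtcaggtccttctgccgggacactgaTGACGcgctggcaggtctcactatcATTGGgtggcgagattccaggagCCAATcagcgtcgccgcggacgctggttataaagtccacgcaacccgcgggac
B2m (chr2:122147437-122147686, plus strand): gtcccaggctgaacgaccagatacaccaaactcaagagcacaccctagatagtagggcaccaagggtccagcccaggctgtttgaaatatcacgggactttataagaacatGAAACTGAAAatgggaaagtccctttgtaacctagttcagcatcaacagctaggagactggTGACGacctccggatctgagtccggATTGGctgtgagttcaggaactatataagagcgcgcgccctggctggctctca
Tap1 (chr17:34187306-34187555, plus strand): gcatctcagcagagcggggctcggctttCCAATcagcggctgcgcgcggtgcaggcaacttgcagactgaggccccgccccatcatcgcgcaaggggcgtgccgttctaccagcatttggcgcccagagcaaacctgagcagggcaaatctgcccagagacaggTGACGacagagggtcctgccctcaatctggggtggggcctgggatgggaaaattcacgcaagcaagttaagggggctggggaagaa

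The runs searched, on both strands, were the interferon-stimulated response element (GAAA, any 2 bases, GAAA), a closer-spaced run (GAA, any 2 bases, GAAA), the kappa B run (GGGGA followed directly by TTCCC), the CRE core TGACG of the X2 box, the CCAAT box and the GC box GGGCGG. The letters were chosen with the sequences in view, and a match is a description of letters, not a bound site. The spacing of the first pair differs, so neither contains the other. The windows of H2-K1 and H2-D1 held the same order of matches, a kappa B run at -125 and -171, the closer-spaced interferon run at -104 and -150, a CRE core at -55 and -101, and CCAAT boxes at -30 and -6 in H2-K1 and at -76 and -53 in H2-D1. Positions are those of the first base, counted back from the start. The kappa B run was in 0.107% and the closer-spaced run in 7.52% of the 32851 windows of 300 bases in the table (250 bases before the start and 50 after it). Aligned with each other, the printed stretches of H2-K1 and H2-D1 were identical at 88.7% of 203 aligned bases.

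The B2m window held the interferon-stimulated response element at -139, which 3.44% of windows held, with a CRE core at -78 and a CCAAT box at -53. The CRE core was in 20.8% and the CCAAT box in 37.4% of all windows. Tap1 and Psmb9 start 226 bases apart on opposite strands, so that their windows overlap. Both windows hold the same CRE core, at -86 from the start of Tap1 and at -144 from that of Psmb9. Neither window held an interferon or kappa B run. The windows of Psmb8 and Psmb10 had no match to any of the 6 runs, and Tapbp had only CCAAT boxes and a GC box, the latter in 35.7% of windows. The starts used for Tapbp (33919478) and Psmb9 (34187330) lie within their GENCODE models, which begin at 33915899 and 34187764. Windows at those other starts were not searched. RefSeq windows were matched for 8 of the 10 genes, not for Tap2 or Nlrc5. The runs were not limited to these genes. Among the constitutive counterparts, Psmb6 held the closer-spaced interferon run at -70, CRE cores at -58 and -9 and a GC box at -182. Psmb5 held a CRE core at -47, and Psmb7 had no window.

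**Figure D1:**
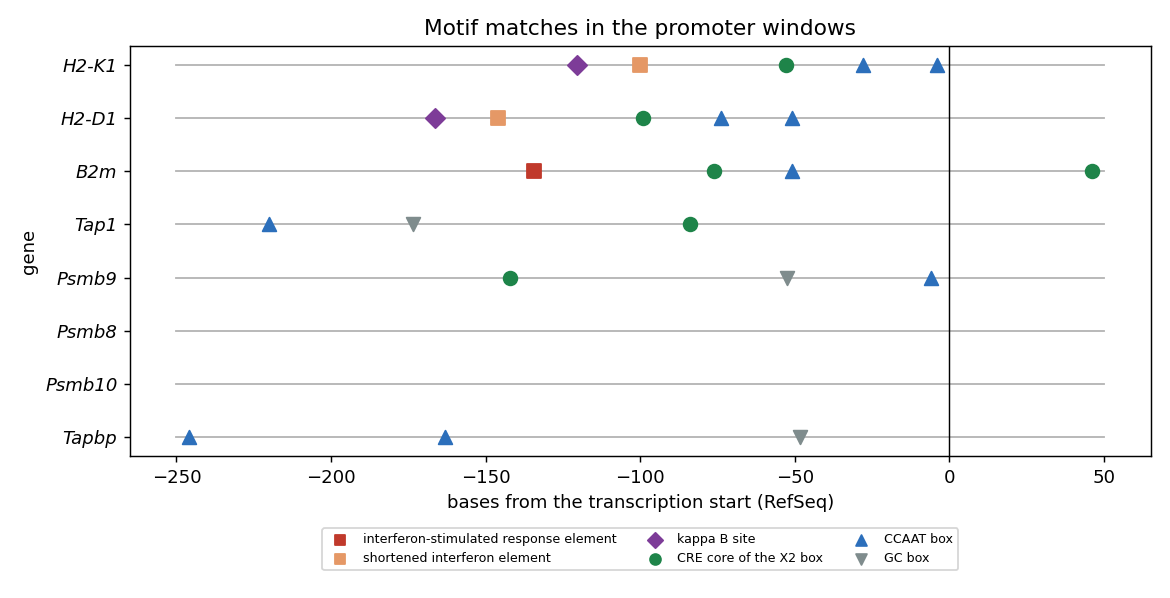
Matches to 6 short runs in the RefSeq promoter windows of 8 class I presentation genes, by distance in bases from the transcription start (x axis) and gene (y axis). H2-K1 and H2-D1 carry the same order of matches at different distances, and Psmb8 and Psmb10 carry none.

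Of the 10 genes, 7 lie on chromosome 17 within 1351601 bases, at chr17:33915899-35267499 (GRCm38, GENCODE M21). In order they are Tapbp, H2-K1, Psmb9, Tap1, Psmb8, Tap2 and H2-D1. Psmb9 (chr17:34181987-34187764) and Tap1 (chr17:34187553-34197225) overlap by 212 bases on opposite strands, Psmb8 (chr17:34197721-34201454) begins 495 bases beyond Tap1, and Tap2 (chr17:34203527-34216321) begins 2072 bases beyond Psmb8. B2m lies at chr2:122147686-122153083, and Nlrc5 (chr8:94434356-94527272) and Psmb10 (chr8:105935735-105938444) both lie on chromosome 8. The strand setting of the counting was not given in the sources used here. Reads from antisense transcripts over 24.9% of the exonic bases of Tapbp, 14.7% of Psmb8 and 14.1% of Tap2 may therefore not be told apart. The 212 bases shared by Psmb9 and Tap1 (3.87% of the exonic bases of Tap1) are those of the GENCODE models. Reads were counted on UCSC RefGene models, and the RefSeq starts given above lie 226 bases apart, with no overlap. Whether the counting models share these bases was not checked.

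The heavy and light chains were among the most abundant transcripts in both groups. In FPKM, B2m ranked 26th in MAMs and 40th in RAMs among the 11571 genes tested. H2-K1 ranked 52nd and 122nd, and H2-D1 ranked 55th and 82nd. On this scale the MAM libraries held 12381, 11721, 10599, 9920 and 10325 FPKM of B2m in the order of replicates 1 to 5, and the RAM libraries held 2342, 2448, 2394, 2784 and 2820. The lowest MAM library was thus far above the highest RAM library. In CPM, counts scaled to a common library total, B2m stood at 8299 ± 852 (SD, n = 5) in MAMs and 1960 ± 176 in RAMs. The log2 fold change was 2.08 ± 0.08 (SE), with an adjusted p of 1.3e-11 by edgeR.

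H2-K1 was at 2375, 2156, 2041, 2246 and 2075 FPKM in MAMs and at 402, 391, 324, 459 and 398 FPKM in RAMs. No library of either group came near the other group. The log2 fold change was 2.48 ± 0.09 (SE, adjusted p = 3.1e-12), which is 5.58-fold. H2-D1 was at 2419, 2284, 1934, 1921 and 2124 FPKM in MAMs and at 550, 574, 512, 586 and 580 FPKM in RAMs. Its log2 fold change was 1.93 ± 0.08 (SE, adjusted p = 3.1e-11), which is 3.82-fold. H2-K1 and H2-D1 are alike over much of their length, with 82.5% identity between their longest transcripts over aligned bases. Only 4.64% of the 100-base windows of the H2-D1 transcript, and none of those of H2-K1, recurred exactly in another gene.

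The heavy chains did not change by the same factor. The ratio of H2-K1 to H2-D1, in FPKM within each library, was 0.982, 0.944, 1.06, 1.17 and 0.977 in MAMs and 0.731, 0.680, 0.632, 0.783 and 0.687 in RAMs. On this scale H2-K1 was about level with H2-D1 in MAMs and below it in every RAM library. That order rests on the length scaling. In unique counts H2-K1 was above H2-D1 in every MAM library and in RAM replicate 4, and the log2 ratio of counts was higher in MAMs by 0.56. The log2 ratio of FPKM was higher in MAMs by 0.54 ± 0.08 (SE), with p = 0.00794 in a two-sided exact permutation test of 5 against 5 libraries, the smallest p this design gives, and 0.0119 after Benjamini-Hochberg adjustment over 6 ratios. The ratio of B2m to the sum of both heavy chains ran from 2.38 to 2.67 in MAMs and from 2.46 to 2.88 in RAMs. The groups overlapped, and the difference of -0.07 ± 0.06 on the log2 scale did not pass (exact permutation p = 0.238, adjusted p = 0.238).

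**Figure D2:**
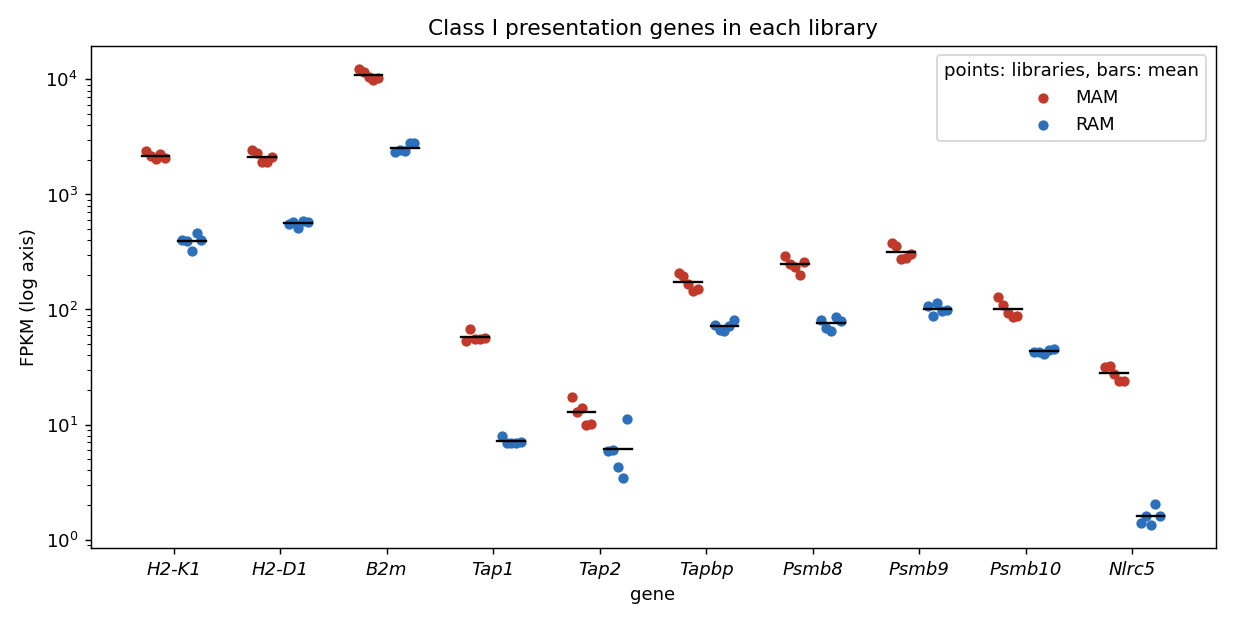
FPKM on a log axis (y axis) of 10 class I presentation genes (x axis) in 5 MAM libraries (red) and 5 RAM libraries (blue), with the group mean as a bar. The groups are apart for 9 genes and overlap for Tap2, where RAM replicate 5 (11.1 FPKM) lies above MAM replicates 4 and 5.

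The peptide transporter is a dimer of TAP1 and TAP2, and its genes behaved differently. Tap1 was at 52.7, 67.6, 55.0, 55.5 and 56.0 FPKM in MAMs and at 7.99, 6.91, 6.85, 6.96 and 7.09 FPKM in RAMs. The RAM libraries were close to each other, and MAM replicate 2 stood above the other MAM libraries. The log2 fold change of Tap1 was 3.10 ± 0.11 (SE, adjusted p = 6.1e-12), which is 8.58-fold. Tap2 was at 17.4, 12.8, 13.9, 9.93 and 10.2 FPKM in MAMs and at 5.94, 6.05, 4.27, 3.39 and 11.1 FPKM in RAMs, which rested on 1292 to 2059 and 315 to 1148 counts per library. It had the widest spread of the 10 genes, with a coefficient of variation in CPM of 25.5% in MAMs and 48.4% in RAMs, beside medians of 19.5% and 16.3% over all genes tested. Its log2 fold change was 1.14 ± 0.29 (SE, adjusted p = 0.00391), and an exact permutation test on the difference in log2 CPM gave p = 0.0238.

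The call for Tap2 depended on single libraries and on the scaling. Without RAM replicate 4, the lowest library, the log2 fold change was 0.95, and without RAM replicate 5, the highest of the RAMs, it was 1.43. The ratio of Tap1 to Tap2 was 3.03, 5.27, 3.95, 5.59 and 5.49 in MAMs and 1.35, 1.14, 1.61, 2.05 and 0.636 in RAMs. Every MAM library was above every RAM library, although the ratio varied within each group. The difference in log2 ratio was 1.85 ± 0.33 (SE, exact permutation p = 0.00794, adjusted p = 0.0119).

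Tapbp, which encodes tapasin, was at 207, 197, 168, 145 and 151 FPKM in MAMs and at 73.7, 66.9, 64.8, 71.2 and 81.6 FPKM in RAMs. The MAM libraries were all higher, and their own spread was wider than that of the RAMs. The log2 fold change was 1.28 ± 0.11 (SE, adjusted p = 7.5e-08). Tapasin-related protein, TAPBPR, edits peptides on class I outside the loading complex, and its gene Tapbpl had a log2 fold change of 0.37 that did not pass (named after its value was seen).

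The immunoproteasome subunits rose together, Psmb8 and Psmb9 by similar factors and Psmb10 by less. Psmb8, the chymotrypsin-like subunit, was at 292, 247, 235, 200 and 260 FPKM in MAMs and at 81.3, 68.9, 65.7, 86.4 and 79.6 FPKM in RAMs. Psmb9 was at 376, 353, 275, 278 and 305 FPKM in MAMs and at 107, 87.2, 114, 97.9 and 98.1 FPKM in RAMs. Psmb10 was at 127, 109, 93.6, 85.4 and 87.9 FPKM in MAMs and at 42.7, 42.5, 41.0, 44.2 and 45.7 FPKM in RAMs. The groups did not overlap for any of these genes. The log2 fold changes were 1.74 ± 0.11 for Psmb8 (SE, adjusted p = 4.3e-09), 1.70 ± 0.10 for Psmb9 (adjusted p = 2.1e-09) and 1.25 ± 0.11 for Psmb10 (adjusted p = 1.6e-07). Psmb10 was the steadiest member among RAMs, with a coefficient of variation of 2.2% in CPM.

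The constitutive counterparts were also higher in MAMs, by smaller factors. Psmb5, Psmb6 and Psmb7 had log2 fold changes of 0.68 (adjusted p = 2.0e-04), 1.05 (adjusted p = 4.5e-06) and 0.52 (adjusted p = 4.9e-04), and Psmb6 alone of these had a fold change over 2. Compared within a library, the ratio of Psmb8 to Psmb5 was 3.37, 2.34, 2.52, 2.14 and 2.64 in MAMs and 1.08, 1.35, 1.16, 1.37 and 1.31 in RAMs. The transcript of Psmb8 thus exceeded that of Psmb5 per length in all 10 libraries, and more so in MAMs. The difference in log2 ratio was 1.04 ± 0.13 (SE, exact permutation p = 0.00794, adjusted p = 0.0119). Of the 100-base windows of the Psmb5 transcript, 24.9% recurred in other annotated genes, so that its unique count may be too low. The ratio to Psmb8 used FPKM, and the effect of these windows on it was not tested.

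The ratio of Psmb10 to Psmb7 was 1.40, 1.55, 0.961, 1.02 and 1.10 in MAMs and 0.730, 0.869, 0.746, 0.760 and 0.852 in RAMs. In FPKM the immunoproteasome transcript was below its counterpart in every RAM library and at or above it in 4 of 5 MAM libraries. The difference in log2 ratio was 0.58 ± 0.14 (SE, exact permutation p = 0.00794, adjusted p = 0.0119). The ratio of Psmb9 to Psmb6 ran from 2.2 to 3.69 in MAMs and from 1.41 to 2.59 in RAMs. The groups overlapped, and the difference of 0.56 ± 0.22 did not pass after adjustment over the 6 ratios (exact permutation p = 0.0476, adjusted p = 0.0571).

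**Figure D3:**
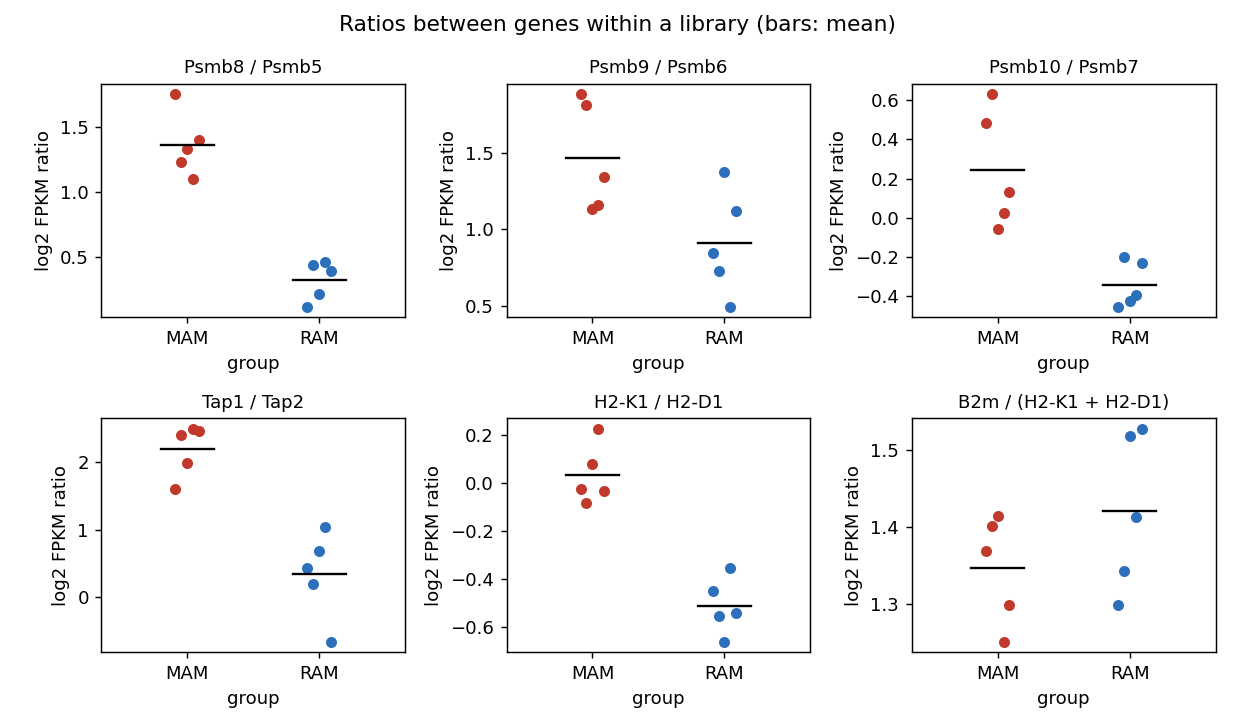
Log2 ratio of FPKM values within a library (y axis) for 6 pairs of class I presentation genes, in 5 MAM libraries (red) and 5 RAM libraries (blue), with bars at the group means. The groups are apart for 4 ratios and overlap for Psmb9 to Psmb6 and for B2m to the sum of the heavy chains.

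Nlrc5 had the largest fold change of the 10 genes. It was at 31.7, 32.2, 27.7, 23.8 and 24.0 FPKM in MAMs and at 1.39, 1.61, 1.33, 2.04 and 1.60 FPKM in RAMs. The RAM level was 6.23% of the MAM level in CPM. These low FPKM values rested on 670 to 1209 counts per RAM library, beside 11637 to 16240 per MAM library, since the transcript is long. The log2 fold change was 4.01 ± 0.12 (SE, adjusted p = 7.2e-13), which is 16.1-fold. By level in FPKM, Nlrc5 ranked 2666th among tested genes in MAMs and 10024th in RAMs. Ciita, which encodes the related transactivator of class II genes, had a log2 fold change of 0.57 that did not pass (adjusted p = 0.105).

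Other transcription factors known to act at class I promoters were counted from a list of 17 genes, all of which were tested. Of these, 8 had an adjusted p under 0.05 and were higher in MAMs (28.9% of all genes tested), 1 was lower (27.3%) and 8 did not pass. A fold change over 2 was found for 5, all higher in MAMs (15.3% of all genes tested). Stat2, which carries the signal of the type I interferon receptor, had a log2 fold change of 2.76 ± 0.11 (SE, adjusted p = 1.3e-11). Irf1, which binds the interferon element of class I promoters, was at 2.36 ± 0.17 (adjusted p = 1.5e-08), and Irf9, the DNA-binding partner of STAT2, at 2.10 ± 0.11 (adjusted p = 3.6e-10).

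The factors through which NLRC5 reaches the promoter had smaller values. Of the 8 listed genes of the RFX, CREB/ATF and NF-Y families, Rfxap and Atf1 were higher in MAMs, Rfx5 was lower, and Rfxank, Creb1, Nfya, Nfyb and Nfyc did not pass. The log2 fold changes of the 8 ran from -0.52 for Nfyc to 1.05 for Rfxap. Rfxap was higher in MAMs, with 15.7 ± 2.31 CPM (SD, n = 5) beside 7.61 ± 1.25 CPM in RAMs. Its adjusted p was 4.2e-04 by edgeR. Atf1 had a log2 fold change of 0.64 (adjusted p = 1.7e-04). Rfx5 was lower, with a log2 fold change of -0.50 (adjusted p = 0.0227), and its groups overlapped. Nfkb1 and Rela, which encode subunits of NF-kappa B, had log2 fold changes of 0.07 and 0.23 that did not pass. These genes and Ciita were named after their values were seen, beyond the naming rule.

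The rest of the pathway was counted from lists of known components. Proteasome genes moved mostly by less than 2-fold. Of 11 other subunits of the 20S core, 10 had an adjusted p under 0.05 and were higher in MAMs (28.9% of all genes tested), with a median log2 fold change of 0.80. The largest were Psma5 at 1.09, Psma4 at 0.96 and Psma7 at 0.94. Of 22 subunits of the 19S cap, which unfolds substrates, 17 were higher and 5 did not pass, with a median of 0.68 and the largest values for Psmc1 (1.38), Psmd12 (1.20) and Psmd8 (1.07). Of 10 activators and assembly factors, 4 were higher, a share near that of all genes tested, and 6 did not pass. The PA28 activator subunits Psme2 (1.61 ± 0.21, SE) and Psme1 (1.31 ± 0.09) led these, with Pomp (1.06 ± 0.11), which helps to assemble immunoproteasomes.

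Genes that act on peptides after the proteasome showed smaller values. In the list of 10 genes for peptide loading, trimming and quality control in the endoplasmic reticulum, only Erap1, the aminopeptidase that trims class I peptides, had an adjusted p under 0.05, with a log2 fold change of 0.39. The median of the list was 0.11, and the other 9 genes did not pass. The chaperones of the loading complex Calr, Canx and Pdia3, named after their values were seen, had values of 0.03, -0.13 and 0.23. Of 6 cytosolic peptidases, Lap3 (0.75), Tpp2 (0.46) and Npepps (0.29) had an adjusted p under 0.05, and Blmh (0.25), Thop1 (0.09) and Nrd1 (-0.14) did not pass. No gene of these 2 lists had a fold change over 2.

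**Figure D4:**
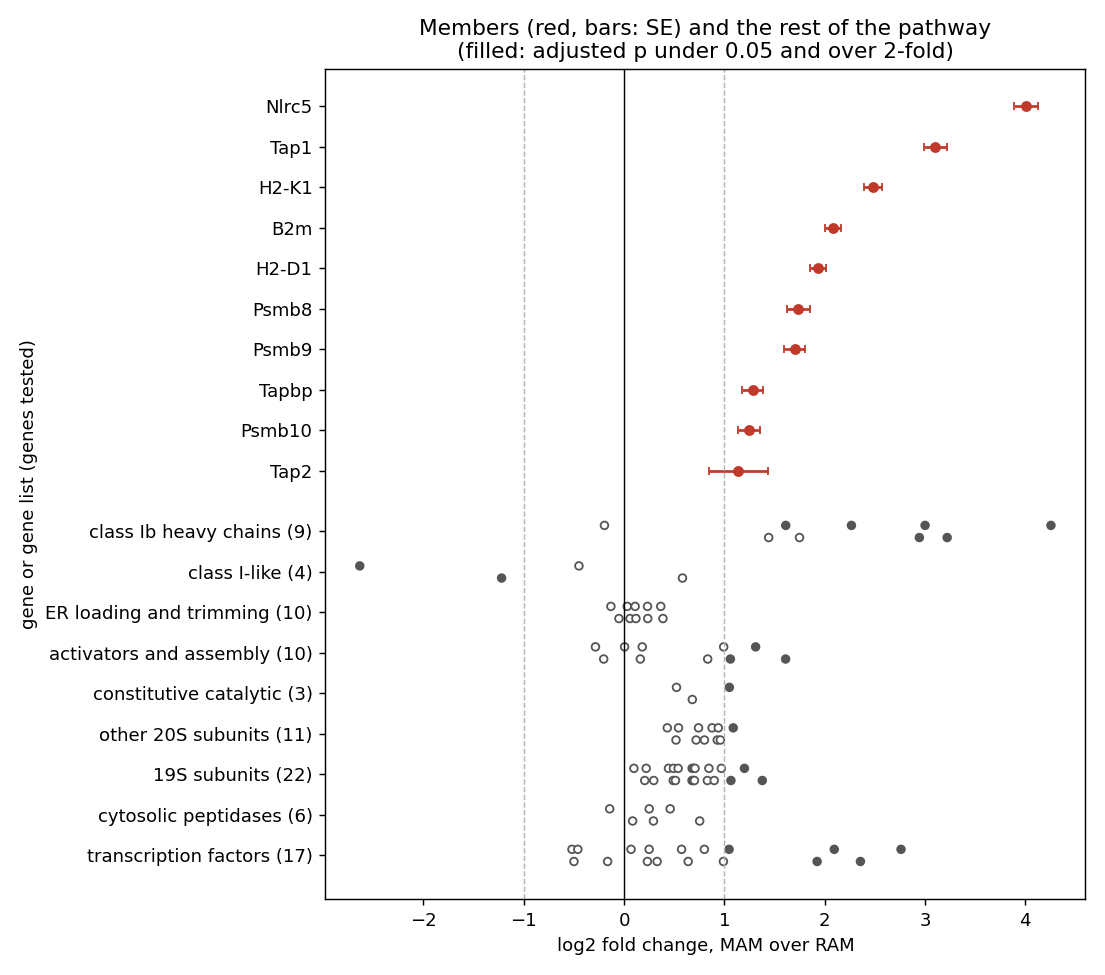
Log2 fold change of MAMs over RAMs from edgeR (x axis) for 10 class I presentation genes (red, bars are SE) and for the tested genes of 9 lists of related genes (y axis, 1 point a gene). Filled points passed both limits (2-fold, adjusted p of 0.05), which holds for all 10 red points, 19 genes higher in MAMs and 2 genes lower.

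Nonclassical class I heavy chains, encoded in the Q, T and M regions on chromosome 17, also pair with beta-2 microglobulin. Of 30 such genes in the files, 9 were tested, of which 6 were higher in MAMs with a fold change over 2 (15.3% of all genes tested) and 3 did not pass. H2-Q5 had the largest log2 fold change (4.26 ± 0.37, SE), followed by H2-T24 (3.22 ± 0.15) and H2-Q4 (3.0 ± 0.16). H2-T23, which encodes Qa-1, was at 2.27 ± 0.12 and H2-M3, which presents formylated peptides, at 1.61 ± 0.12, both named after their values were seen.

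For some of these near-identical genes the authors' counts and FPKM values part, which was not limited to this list. The counts held only uniquely mapped reads, and 16 of the 30 genes had 0 counts in all 10 libraries. Of the 16, 5 had a mean of at least 1 FPKM in a group. H2-Q7, which encodes Qa-2 together with H2-Q9, was at 147, 180, 166, 148 and 157 FPKM in MAMs and at 6.15, 7.77, 3.24, 8.26 and 5.79 FPKM in RAMs. Its MAM values were close to those of Tapbp, yet it had no unique count. H2-Q6 had means of 53.6 ± 10.8 FPKM (SD, n = 5) in MAMs and 2.90 ± 1.82 in RAMs, and H2-T9 had 44.8 ± 7.41 and 3.20 ± 2.47. H2-T22 rested on 29 to 77 counts in MAMs and 1 to 32 in RAMs, while its FPKM mean was 28.7 in MAMs and 5.12 in RAMs. Which of these paralogs the reads came from cannot be settled from these values, and none of these 4 genes, singled out after their values were seen, was called.

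Class I-like molecules with other ligands went both ways. Of 5 in the files, 4 were tested. At an adjusted p of 0.05, 3 were lower in MAMs (27.3% of all genes tested) and 1 was higher (28.9%). Fcgrt, which encodes the heavy chain of the neonatal Fc receptor, was lower in MAMs, with 28.1 ± 5.55 CPM (SD, n = 5) beside 174.6 ± 12.1 CPM in RAMs. Its log2 fold change was -2.64 (adjusted p = 1.2e-10 by edgeR). A fold change over 2 was found for 2 of the 4, Fcgrt and Mr1, both lower in MAMs (15.1% of all genes tested). Mr1, which presents microbial vitamin B metabolites to MAIT cells, had a log2 fold change of -1.22 (adjusted p = 4.0e-05). Cd1d1, which presents lipids to NKT cells, was at -0.45 (adjusted p = 0.0464), and Hfe, which takes part in iron sensing, was at 0.58 (adjusted p = 0.0282). The groups overlapped for Cd1d1 and for Hfe. All 4 pair with beta-2 microglobulin, and B2m rose as given above.

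The 10 genes varied little within a group, Tap2 aside. The coefficient of variation in CPM was below the median of all genes tested for 9 of 10 genes in MAMs and for 9 of 10 in RAMs. Without Tap2 it reached at most 16.6% in MAMs and 15.4% in RAMs. The median covers genes of all levels, and the members were not compared with genes of a like level. The deviations were shared by many members. MAM replicate 1 was the highest MAM library for 8 genes and MAM replicate 2 for the other 2, Tap1 and Nlrc5. MAM replicate 4 was the lowest for 5 genes.

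Taken as the median deviation from the group mean in log2 CPM over the 10 genes, the MAM libraries stood at 0.24, 0.11, -0.07, -0.18 and -0.06. The RAM libraries stood at 0.08, -0.02, -0.17, 0.03 and 0.03. Of 6 macrophage markers, the most abundant, Lyz2, was at 23148, 22977, 21213, 15982 and 19953 CPM in the MAM libraries, highest in replicate 1 and lowest in replicate 4. Csf1r was also highest in replicate 1, at 1309, 1182, 1051, 1079 and 1040 CPM. Cd68, Fcgr1, Adgre1 and Mertk were instead lowest in replicate 1. Cd68 was at 1694, 1730, 2045, 2073 and 2013 CPM and Fcgr1 at 446, 522, 613, 679 and 604 CPM. The summed CPM of 9 alveolar macrophage markers in the MAM libraries was 558, 497, 399, 262 and 299. The summed CPM of 5 endothelial markers was 21.7, 40.1, 58.7, 93.1 and 52.8, in which MAM replicate 4 was highest and replicate 1 lowest. The part of other cells in the spread among MAMs was not tested.

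**Figure D5:**
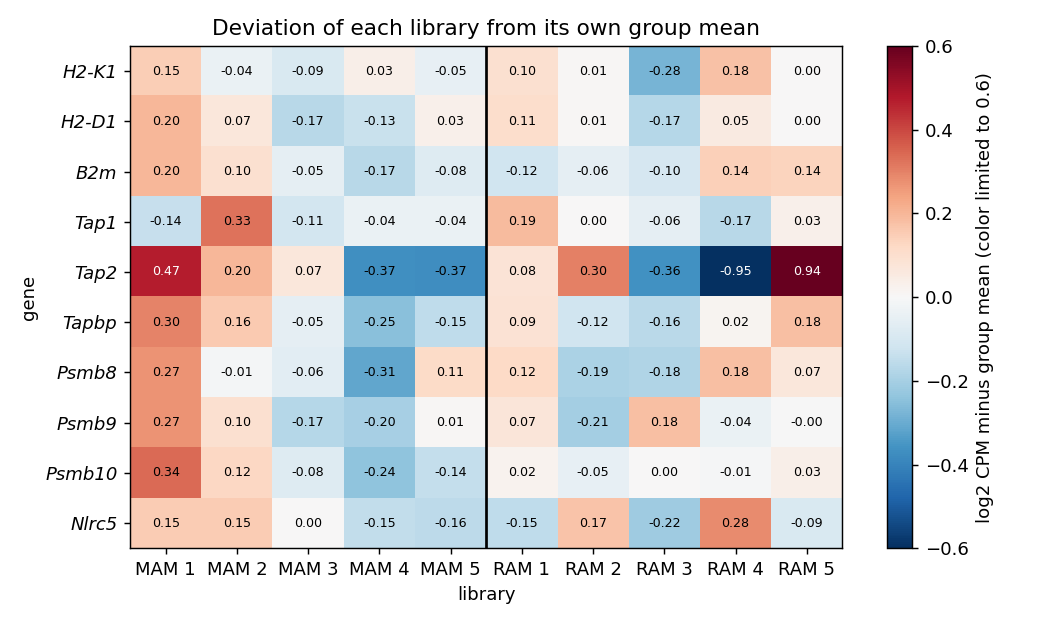
Deviation of each library from its own group mean in log2 CPM (color and printed value) for 10 class I presentation genes (rows) in 5 MAM and 5 RAM libraries (columns). MAM replicate 1 is above its group mean for 9 genes and MAM replicate 4 for 1 gene, and Tap2 has the widest deviations, -0.95 and 0.94 in RAM replicates 4 and 5.

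The genes with the most similar profile over the 10 libraries were mostly not members. Likeness was the mean absolute difference in log2 CPM after each gene was centered on its own mean. The nearest gene was another member in 1 of 10 cases, Psmb10 for Tapbp (0.06). H2-D1 was nearest to Npc2 (0.05), H2-K1 to Vcl (0.09), B2m to Eif2ak2 (0.07), Tap1 to Hk1 (0.10) and Tap2 to Xylt1 (0.26). Psmb8 was nearest to Cstb (0.09), Psmb9 to Rab11fip5 (0.08), Psmb10 to Cd244 (0.05) and Nlrc5 to Helz2 (0.11). Because the difference between the groups dominates each profile, near genes are mainly those with a like fold change, such as 3.89 on the log2 scale for Helz2. B2m was the 4th nearest gene to H2-D1 and H2-D1 the 5th nearest to B2m, while the nearest member to Nlrc5, Tap1, was the 115th.

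The sorted cells were checked against markers of other cells. Summed over the list, markers of alveolar macrophages lay between 262 and 558 CPM in MAMs and between 9645 and 12462 CPM in RAMs. Those of macrophages in general lay between 20454 and 27060 CPM in MAMs and between 27984 and 35362 CPM in RAMs, most of which was Lyz2. Of these 6 genes, Csf1r, Cd68, Adgre1 and Fcgr1 were higher in MAMs at an adjusted p of 0.05, and Lyz2 and Mertk were lower. Endothelial markers lay between 21.7 and 93.1 CPM in MAMs and between 1.93 and 13.6 CPM in RAMs, and Pecam1, Kdr and Cdh5 were called higher in MAMs while Cldn5 had 0 counts in every MAM library. Fibroblast markers summed to 3.49 to 40.6 and 0.270 to 5.99 CPM, T cell markers to 10.3 to 17.2 and 2.00 to 6.06 CPM, neutrophil markers to 4.03 to 17.9 and 1.41 to 2.73 CPM, and dendritic cell markers to 3.11 to 12.5 and 1.85 to 4.24 CPM. Natural killer cell markers summed to 0.142 to 1.22 and 10.1 to 12.9 CPM, and B cell markers to 3.23 to 21.4 and 2.65 to 16.6 CPM. Prf1 made up most of the natural killer cell sum in RAMs (mean of 11.3 CPM). Cd4 made up most of the T cell sum in MAMs (mean of 10.1 CPM). Of the other genes in both lists, Cd3e did not pass (adjusted p = 0.742 by edgeR) and the rest fell below the filter on low values. The markers of epithelium and tumor summed to 9.84 to 23.6 CPM in MAMs and 589 to 702 CPM in RAMs. Krt19, Cdh1 and Epcam made up nearly all of the RAM sum (means of 436, 131 and 76.8 CPM). Krt8 went the other way, with 34 to 148 counts in MAMs and 0 to 12 in RAMs, and Krt18 had 0 to 435 and 0 to 21 counts. Lung epithelium markers summed to 0.996 to 11.02 and 18.4 to 39.8 CPM, and the 5 erythroid genes had 0 counts throughout. The part of these cells in the differences above was not tested.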

How the data were processed

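Per the labels and the methods of the study, libraries were made with the Ovation RNA-Seq System V2 kit and sequenced as pairs of 100 bases. The authors aligned reads to GRCm38/mm10 with TopHat2 2.0.13 and deposited whole-number counts of uniquely mapped reads per gene (HTSeq 0.6.1, UCSC RefGene models) and FPKM values per gene and library (Cufflinks 2.2.1). Counts on genes ran from 55391447 to 87523247 in MAMs and from 50746305 to 72150650 in RAMs, and the counts behind low values are given beside them. Lines that name no gene (54.6-58.3% in MAMs and 62.2-64.1% in RAMs) were left out. Samples were grouped by the sorting markers and titles of the sample records, which do not say whether RAM libraries are single mice. P-values measure the spread between these libraries.

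Genes were kept where either group averaged 1 FPKM or more and some library held a count, and were tested on counts with edgeR's quasi-likelihood test (edgeR 4.0.16, R 4.3.3, TMM scaling) and Benjamini-Hochberg adjustment over 11571 genes. A fold change over 2 with an adjusted p under 0.05 was called. Another 51 genes passed the FPKM filter without any count. CPM values are TMM-scaled, and log2 CPM used a prior count of 2. The standard error was the log2 fold change divided by the root of the F statistic. Ratios of FPKM values were compared by exact permutation (scipy 1.17.1), adjusted over 6 pairs. Alternatives were DESeq2 1.42.0, RLE and upper-quartile scaling, library totals without scaling factors (added after the data were seen), other filters, a replicate block, limma 3.58.1 on log2(FPKM + 1) and log2(FPKM + 0.1), and leaving out each library. The fitting steps were tested on simulated data. Sequences were aligned with biopython 1.88 and figures drawn with matplotlib 3.10.9 in Python 3.11.15.

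Named genes are all 10 members, every tested gene of lists with up to 6 tested genes, the 3 largest changes with an adjusted p under 0.05 in longer lists, genes of the ratios and the nearest gene of each member. Others are said to be named after their values were seen. The members, lists and motifs were chosen with earlier results of these data known.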

Additional observations from a re-analysis of the deposited data

Results flagged for a closer look

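Tap1 in MAM replicate 2 stood apart from the other MAM libraries. It was at 197 CPM, and the other 4 libraries lay between 142.7 and 152.8 CPM. The gap to the nearest library was 0.814 of the range of the group, above the 95% limit of 0.71 for 5 values in Dixon's test. It was the only such value in 32 groups examined, where chance gives about 1 in 20. Without MAM replicate 2 the log2 fold change of Tap1 was 3.01.

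For 4 nonclassical heavy chain genes the FPKM table held a signal in MAMs above that in RAMs, while the count tables held 0 unique counts in every library. The mean in MAMs was 160 FPKM for H2-Q7 (RAM libraries from 3.24 to 8.26), 53.6 for H2-Q6 (RAM libraries up to 4.86), 44.8 for H2-T9 (RAM libraries up to 6.05) and 2.38 for H2-Q9 (RAM libraries up to 2.59e-05). These values were not tested. In H2-Q9 the MAM libraries ran from 0.313 to 4.23 FPKM. H2-Q8, the remaining gene of this kind, had a mean of 3.86 FPKM in MAMs and 0.659 in RAMs, and its groups overlapped.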

How the results depend on the processing

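Of 416 values recomputed under alternatives, 409 were labeled the same and 0 reversed. Fold changes and ratios were the same if they kept their direction and side of the threshold. Counts of genes and the median fold change only had to stay within a set margin of the main value. The count of called members was 9 to 10. Tap2 kept its direction but fell below a 2-fold change under upper-quartile scaling (0.97), with library totals (0.91) and without RAM replicate 4 (0.95). With each of the other 9 libraries left out it stayed above 2-fold, so that the range was 0.95 to 1.43. These scalings moved the median log2 fold change of all genes from -0.02 to -0.18 and -0.24, so relative to it Tap2 moved little. The ratio of Psmb9 to Psmb6 passed after adjustment when counts replaced FPKM (0.64) and without RAM replicate 3 (0.67), with a range of 0.45 to 0.67 over libraries left out. The cause was not tested. The other 9 members kept a fold change over 2 in all 19 settings, the lowest being 1.02 for Psmb10 with library totals, and Nlrc5 ran from 3.47 (limma on log2(FPKM + 1)) to 4.08. Genes called ran from 2909 to 4672 over settings.

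The replicate block used numbers that are shared between the groups. Same-numbered libraries did not deviate together (correlations from -0.04 to 0.03), and 2 of 5 MAM libraries correlated best with the RAM library of their own number. Whether same-numbered libraries were handled together cannot be settled this way, since shared handling may leave no common deviation. With the block, log2 fold changes were 2.49 for H2-K1, 1.93 for H2-D1, 1.23 for Psmb10 and 4.01 for Nlrc5, and 10 members were called.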
